A study of Araneus ventricosus with 24 samples.

Results

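Silk glands of the orb-weaving spider Araneus ventricosus after 30 days of cadmium exposure were set against glands of untreated spiders, with RNA sequencing of 3 libraries in each group. Expression is given per cluster, a group of assembled transcripts named here by its closest database hit; clusters that share a name may be pieces of 1 gene. These 6 columns were taken by their names from the 24 columns of the deposited table of estimated read counts, which hold 20 distinct libraries, 10 of them from the gland. All 6 carry the tissue label ampullate gland. The study also exposed spiders for the same 30 days to lead and to both metals together, and sequenced cerebral ganglia under all 4 conditions. No dose or route of exposure is given for any group. Nothing in the labels says whether a library came from 1 animal or from several, so the p-values below measure the spread between libraries.

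Orb weavers spin several silks, each from its own kind of abdominal gland. Major ampullate glands make dragline and frame silk, minor ampullate glands make auxiliary thread, flagelliform glands make the core of the capture spiral, aggregate glands make the glue droplets laid over that core, aciniform glands make wrapping silk and pyriform glands make attachment discs. The silk proteins, called spidroins, are large and repetitive, so an assembly without a genome tends to break each gene into several pieces. Cadmium is a non-essential metal that binds thiol groups; metallothioneins are small cysteine-rich proteins known in many animals to bind it.

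With cadmium, clusters of the glue proteins of aggregate silk stood higher than in untreated glands, by 1.95 to 5.06 on the log2 scale for the 12 of 15 tested in which all 3 cadmium libraries lay above all 3 untreated ones. Clusters matching alpha-2-macroglobulin, acid phosphatase, fatty acyl-CoA reductase and ornithine decarboxylase were also mostly higher. In the pantetheinase and biotinidase family, 6 of 17 had all cadmium libraries above and 2 below, beside 5.77% and 3.01% of all clusters. The other 9 overlapped. Clusters of the contractile proteins of muscle were mostly lower. The lists of these families and of the contractile subset were set after values had been seen. Their counts beside all clusters are therefore descriptive only. None of these differences passed the test across all clusters: edgeR's quasi-likelihood test with Benjamini-Hochberg adjustment called 0 of 44505 clusters, a share of 0%, with a smallest adjusted p of 0.821.

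At an unadjusted edgeR p under 0.05 there were 1028 higher clusters (2.31% of those tested) and 245 lower ones (0.55%), together 1273 (2.86%). DESeq2, run on the same clusters, called 97, of which 93 were higher and 4 lower with cadmium; 57 of them have a description and 10 are silk clusters. All cadmium libraries lay above all untreated ones in 2566 clusters (5.77%) and below them in 1340 (3.01%). With 3 libraries against 3, an exact two-sided permutation test of a single value cannot go below 0.1. The median log2 difference over all clusters tested was 0.07, and every list is read beside it.

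The deposited counts summed to 17074077, 20954478 and 17275416 in cadmium libraries 1, 2 and 3 and to 14834065, 17308859 and 17036291 in untreated libraries 1, 2 and 3. Counts were present in 61817 to 78661 clusters per cadmium library and in 48898 to 65939 per untreated library. Log-scale correlation between libraries over the tested clusters was 0.853 to 0.905 within cadmium and 0.568 to 0.725 within untreated. Among 25928 clusters at 1 CPM (counts per library size, TMM-scaled, in the usual CPM unit) or more on average, the median SD of log2 CPM was 0.499 in cadmium and 0.791 in untreated glands, and 74.8% of them had the larger SD in untreated glands. In 4 other groups of the study, 1 of the 3 columns repeats another column cluster by cluster, and each such pair was counted once; none of the 6 columns compared here is affected.

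The label ampullate gland was checked against the silk transcripts. Silk clusters of any type held 15.1, 14.0 and 13.8% of the counts in cadmium libraries and 6.23, 19.4 and 10.2% in untreated libraries. Aciniform spidroin clusters held 9.29 ± 1.56% of the counts in cadmium glands and 8.65 ± 6.23% in untreated glands, major ampullate ones 1.84 ± 0.689% and 0.826 ± 1.22%, and minor ampullate ones 0.321 ± 0.189% and 0.0871 ± 0.133% (SD, n = 3 each). On the per-length scale of summed FPKM, major ampullate clusters held 8.01% in cadmium glands and 2.87% in untreated glands, aciniform clusters 7.97% and 8.49%, and pyriform clusters 2.33% and 3.80%. Transcripts of wrapping and attachment silk were thus present in all 6 libraries beside those of ampullate silk.

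Aggregate spidroin clusters held 0.624, 1.29 and 0.704% of the counts in cadmium libraries and 0.141, 0.0411 and 0.219% in untreated libraries. Every cadmium library lay above every untreated one, and the mean share was 0.872 ± 0.362% with cadmium and 0.134 ± 0.0892% without (SD, n = 3 each), a ratio of 6.52. In bulk libraries, more cells of the aggregate gland and more of this RNA per cell cannot be told apart. Of 15 tested clusters, 11 were higher and 0 lower at an unadjusted p under 0.05, beside 2.31% and 0.55% of all clusters, and the median log2 difference was 3.65 against 0.07 over all. All 3 cadmium libraries were above in 12 clusters and below in 1, beside 5.77% and 3.01% of all clusters. The 12 clusters share sequence names and may be pieces of a few genes, so they are not independent counts.

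Aggregate spidroin 1 is a main protein of the glue. Its Cluster-16698.46986, 1453 bases long, stood at 604, 3636 and 1713 CPM with cadmium and at 29.8, 73.7 and 85.0 CPM without. The lowest cadmium library was several times the highest untreated one, and the log2 difference was 4.98 ± 0.90 (SE) at an edgeR unadjusted p of 0.000239 and an adjusted p of 1. DESeq2 gave the same cluster an adjusted p of 6.05e-05. A second piece, Cluster-16698.47038, had 309, 1260 and 1345 CPM with cadmium and 36.2, 55.6 and 71.2 CPM without, a log2 difference of 4.16 ± 0.88. The groups did not overlap in this piece either. The shorter Cluster-16698.43442 had 20.5, 146 and 64.3 CPM with cadmium and 0.675, 3.57 and 3.02 CPM without, a log2 difference of 4.99 ± 1.01. A cluster whose protein hit is mesocentin and whose nucleotide hit is an aggregate spidroin, Cluster-16698.41729, had 59.0, 115 and 100 CPM with cadmium and 3.94, 3.92 and 6.70 CPM without. Its log2 difference was 4.23 ± 0.78.

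Among the more abundant aggregate pieces the differences were smaller. Cluster-16698.46763 had 1993, 2751 and 2995 CPM with cadmium and 499, 152 and 869 CPM without, a log2 difference of 2.35 ± 0.78 at an edgeR unadjusted p of 0.0125. Cluster-16698.46854, named by its nucleotide hit, had 2007, 3253 and 1482 CPM with cadmium and 557, 63.3 and 1127 CPM without. Both sets of libraries stood apart, in the second case by a small margin. A single piece ran the other way: Cluster-16698.54844 had 4.49, 3.61 and 6.04 CPM with cadmium and 7.88, 7.54 and 10.7 CPM without, and its level is far below those of the main pieces.

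**Figure D1:**
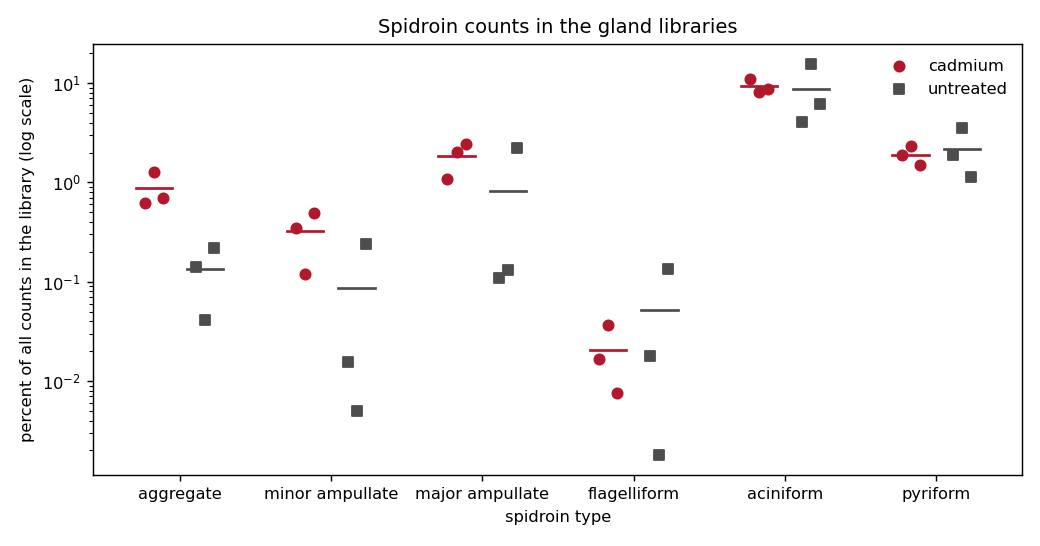
Share of estimated counts held by each silk type in each gland library, in percent on a log axis, with cadmium libraries (red circles) left of untreated libraries (grey squares) and horizontal lines at the group means. The 3 cadmium values of aggregate spidroins, 0.624 to 1.29%, lie above the 3 untreated values, 0.0411 to 0.219%, while the values of the other silk types overlap between the groups.

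Minor ampullate spidroin clusters showed the same side but not the same separation. Their share was 0.345, 0.121 and 0.497% with cadmium and 0.0154, 0.00499 and 0.241% without. Untreated library 3 lay between the cadmium libraries, and the other two untreated libraries lay below them. Among 11 tested clusters the median log2 difference was 3.73, 4 were higher and 0 lower at an unadjusted p under 0.05, beside 2.31% and 0.55% of all clusters, and 6 had all cadmium libraries above and 0 below, beside 5.77% and 3.01%. Minor ampullate spidroin 1 variant 4, Cluster-16698.49832, had 54.0, 40 and 77.1 CPM with cadmium and 0.394, 1.99 and 5.13 CPM without, with no overlap. The most abundant piece, Cluster-16698.47115, had 2494, 752 and 2793 CPM with cadmium and 53.8, 38.1 and 2299 CPM without. The median of the minor ampullate spidroin list was 5.41 without untreated library 3, with 8 higher at an unadjusted p under 0.05, and 1.5 without cadmium library 3. With 1 higher, the fewest came without untreated library 2. Over all clusters, 3271 of 43334 were higher without untreated library 3 and 2190 of 43716 without untreated library 2.

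Major ampullate spidroin clusters, the dragline proteins, held 1.08, 2.01 and 2.42% of counts with cadmium and 0.108, 0.133 and 2.24% without. Untreated library 3 again fell among the cadmium libraries. Of 67 tested clusters the median log2 difference was 1.79, 54 differences were positive, 7 clusters were higher and 1 lower at an unadjusted p under 0.05, and only 1 had non-overlapping groups, beside 2.31%, 0.55% and, for cadmium above, 5.77% of all clusters. Without untreated library 3, the major ampullate spidroin list had a median of 4.01, and 40 clusters were higher at an unadjusted p under 0.05. Without cadmium library 2 the median was 0.79 and 1 cluster was higher. Over all clusters, 3271 of 43334 were higher in the first of these fits and 528 of 43485 in the second. Major ampullate spidroin 2 variant 5, Cluster-16698.46941, shows the pattern with 1796, 1878 and 2434 CPM with cadmium and 38.7, 235 and 6397 CPM without. Its highest and its lowest values are both from untreated libraries.

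Wrapping and attachment silk overlapped between the groups. None of the 13 aciniform and none of the 6 pyriform clusters had an unadjusted p under 0.05 in edgeR's test or non-overlapping groups, and their median log2 differences were -0.01 and -0.70. The most abundant described cluster of the gland, the aciniform spidroin Cluster-16698.47205, had 57099, 36763 and 55911 CPM with cadmium and 23912, 100639 and 37845 CPM without. The untreated values enclose the cadmium values. Without untreated library 2, which holds the highest of them, the aciniform spidroin list had a median of 2.22. In that fit 6 aciniform clusters were higher at an unadjusted p under 0.05, beside 2190 of 43716 over all clusters. The aciniform share was then 9.29% with cadmium and 5.11% without, with no overlap. The pyriform spidroin Cluster-16698.46903 had 8873, 14469 and 11713 CPM with cadmium and 8594, 24898 and 4485 CPM without, again enclosing them. The median of the pyriform spidroin list was 0.35 without untreated library 2.

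Flagelliform spidroin, the capture-spiral protein, held at most 0.0368% of counts with cadmium and 0.136% without, and its pieces did not go one way. Cluster-16698.32403, flagelliform spidroin variant 1, had 11.2, 141 and 65.2 CPM with cadmium and 3.43, 2.51 and 2.54 CPM without, a log2 difference of 4.68 ± 0.98 with no overlap. The more abundant flagelliform fibroin Cluster-16698.46827 had 118, 81.8 and 16.2 CPM with cadmium and 135, 10.2 and 1319 CPM without. These overlap, and untreated library 3 was the highest of the 6. Over the 13 tested clusters the median log2 difference was 0.37, and 3 were higher and 0 lower at an unadjusted p under 0.05, beside 2.31% and 0.55% of all clusters. The sign of the flagelliform spidroin median turned with single libraries. It was -2.24 without cadmium library 2, with 1 higher and 1 lower, -0.11 without untreated library 1, -0.14 without untreated library 2 and 2.52 without untreated library 3.

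Outside silk, clusters matching alpha-2-macroglobulin had the smallest p-values. Alpha-2-macroglobulins are secreted traps for proteases, found in arthropod hemolymph. Of 40 tested clusters of the family, 18 were higher and 0 lower at an unadjusted p under 0.05, beside 2.31% and 0.55% of all clusters. The same numbers had all cadmium libraries above and below, beside 5.77% and 3.01%. The median log2 difference of the alpha-2-macroglobulin family was 1.47, and the count of 18 was 12 without cadmium library 2 and 12 with the 6 libraries alone. Over all clusters, 528 of 43485 and 492 of 32150 were higher in these fits. With the 6 libraries alone, 35 clusters of the family were tested. Cluster-16698.41943 had 9.62, 15 and 9.20 CPM with cadmium and 1.12, 1.52 and 1.03 CPM without. Its replicates lay close together in both groups, and the log2 difference of 3.20 ± 0.45 had an edgeR unadjusted p of 3.28e-05 and an adjusted p of 0.821; DESeq2 gave an adjusted p of 4.55e-06.

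Other members of the family differed by less or not in one direction. Cluster-16698.46739 had 23.9, 51.4 and 27.1 CPM with cadmium and 4.61, 6.14 and 4.23 CPM without, a log2 difference of 2.77 ± 0.45. The pregnancy zone protein-like Cluster-16698.47961, at a higher level, had 185, 204 and 154 CPM with cadmium and 74.3, 23.6 and 80.2 CPM without, and a log2 difference of 1.61 ± 0.52. By contrast the murinoglobulin-2 match Cluster-16698.47399 had 43.1, 28.8 and 171 CPM with cadmium and 86.1, 485 and 99.5 CPM without. Its groups overlap, and the summed share of the family overlaps as well, at 0.0990 to 0.152% with cadmium and 0.0691 to 0.164% without. Hemocyanin, the oxygen carrier of the hemolymph, was on the same side as the murinoglobulin-2 match: all 11 tested hemocyanin clusters had negative log2 differences with a median of -1.19, none had non-overlapping groups, and their share was 0.081, 0.0362 and 0.294% with cadmium and 0.118, 0.733 and 0.158% without. Without untreated library 2, the hemocyanin median was 0.08. The wider hemolymph and hemocyte list of 34 clusters had a median of -0.37, and of 1.09 without untreated library 2. At an unadjusted p under 0.05, 8 of its clusters were higher and 0 lower, beside 2.31% and 0.55% of all clusters. This list includes alpha-2-macroglobulin matches as well as hemocyanin, so its counts are not separate from those of that family. The part of hemolymph in these values was not tested.

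Acid phosphatases are hydrolases, several of them lysosomal. Their clusters held 0.0498, 0.0675 and 0.0544% of counts with cadmium and 0.0323, 0.0360 and 0.0338% without, with no overlap. Of 21 tested clusters, 10 were higher and 0 lower at an unadjusted p under 0.05, beside 2.31% and 0.55% of all clusters, and the median log2 difference was 1.27. The lysosomal acid phosphatase Cluster-16698.35904 had 2.96, 6.86 and 4.53 CPM with cadmium and 0.394, 0.468 and 0.725 CPM without, a log2 difference of 3.16 ± 0.72. The wider lysosome and autophagy list held 0.368, 0.527 and 0.443% of counts with cadmium and 0.298, 0.296 and 0.254% without. Its lysosomal aspartic protease, Cluster-16698.48177, a cathepsin D-type enzyme, had 389, 615 and 538 CPM with cadmium and 231, 262 and 172 CPM without. Over the 110 tested clusters the median log2 difference was 0.42, and 26 differences were negative. All cadmium libraries lay above in 12 and below in 2, beside 5.77% and 3.01% of all clusters. At an unadjusted p under 0.05, 5 were higher and 0 lower, and 14 and 0 without untreated library 2. Over all clusters in that fit, 2190 of 43716 were higher and 411 lower. Most members of the lysosome and autophagy list overlapped between groups.

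Pantetheinases cleave pantetheine to release pantothenic acid and cysteamine; the protein called vascular non-inflammatory molecule 3 belongs to the same family. This family held 0.0294, 0.0609 and 0.0411% of counts with cadmium and 0.0108, 0.0104 and 0.0109% without, a ratio of means of 4.09. Cluster-16698.50280, a vascular non-inflammatory molecule 3 match, had 82.8, 133 and 121 CPM with cadmium and 7.14, 9.35 and 28.3 CPM without, a log2 difference of 2.91 ± 0.74. The related Cluster-16698.51717 had 62.5, 182 and 166 CPM with cadmium and 24.0, 5.14 and 19.2 CPM without. Both were apart between groups. A biotinidase match, Cluster-16698.10608, ran the other way, with 0.987, 0.267 and 2.75 CPM with cadmium and 5.46, 10.8 and 7 CPM without. In all, 5 of the 17 tested clusters were higher and 1 lower at an unadjusted p under 0.05, beside 2.31% and 0.55% of all clusters. All cadmium libraries lay above in 6 and below in 2, beside 5.77% and 3.01%, and 9 overlapped. The median log2 difference was 0.44, and 6 differences were negative.

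Fatty acyl-CoA reductases make fatty alcohols, the precursors of waxes. Of 34 tested clusters, 11 were higher and 0 lower at an unadjusted p under 0.05, 13 had all cadmium libraries above and 0 below, and the median log2 difference was 1.63. The shares over all clusters were 2.31% and 0.55% by p, and 5.77% and 3.01% by separation. The 11 higher fatty acyl-CoA reductase clusters became 6 without cadmium library 2, and the median became 2.58 without untreated library 3. The fatty acyl-CoA reductase 1-like Cluster-16698.52999 had 9.23, 13.2 and 10.2 CPM with cadmium and 0.675, 0.643 and 0.181 CPM without. The difference of 4.42 ± 0.86 on the log2 scale rests on low but similar values in each group. The most abundant member, Cluster-16698.44860, had 20.8, 20.8 and 60 CPM with cadmium and 25.0, 14.4 and 13.7 CPM without, which overlap. Over the whole lipid metabolism list of 292 clusters, which includes this family, 29 were higher and 0 lower at an unadjusted p under 0.05. In the lipid metabolism list the 29 became 14 without cadmium library 2, 17 without cadmium library 3, 19 with RLE size factors and 12 with the 6 libraries alone. Over all clusters, 528 of 43485, 804 of 43534, 890 of 44505 and 492 of 32150 were higher in the same order, against 1028 as reported. With the 6 libraries alone, 225 lipid metabolism clusters were tested.

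Ornithine decarboxylase, the enzyme that starts polyamine synthesis, held 0.138, 0.157 and 0.118% of counts with cadmium and 0.0703, 0.0507 and 0.0897% without. Of its 10 tested clusters, 4 were higher and 0 lower at an unadjusted p under 0.05, beside 2.31% and 0.55% of all clusters. The count for ornithine decarboxylase was 2 without cadmium library 2, and its median of 1.05 was 2.87 without untreated library 3. Over all clusters, 528 of 43485 were higher without cadmium library 2. Cluster-16698.57507 had 6.71, 32.6 and 64.2 CPM with cadmium and 0, 0.760 and 0.423 CPM without. The groups did not overlap. Acetylcholinesterase, which splits acetylcholine, did not go one way: AChE5 Cluster-16698.50550 had 74.1, 194 and 106 CPM with cadmium and 9.62, 3.16 and 12.3 CPM without, a log2 difference of 3.90 ± 0.93, whereas AChE5 Cluster-16698.51278 had 2.47, 9.67 and 4.12 CPM with cadmium and 27.0, 132 and 7.61 CPM without, a log2 difference of -3.35 ± 0.96. The median of the 29 tested clusters was 0.00.

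Of single clusters outside these families, a carcinine transporter match, Cluster-16698.45466, had 84.1, 522 and 219 CPM with cadmium and 27.3, 16.2 and 23.4 CPM without. Carcinine is a conjugate of histamine, known in flies for histamine recycling. The log2 difference was 3.63 ± 0.69, and the 3 cadmium values spread more widely than the 3 untreated ones. The ileal sodium/bile acid cotransporter match Cluster-16698.59168, a member of a family of sodium-coupled transporters, had 11.1, 61.5 and 27.5 CPM with cadmium and 1.29, 3.74 and 3.08 CPM without. Chitin deacetylase 8, an enzyme acting on chitin, had 219, 1737 and 126 counts in cadmium libraries and 0, 1 and 0 counts in untreated libraries, in Cluster-16698.46386. Cuticle protein 14, Cluster-16698.8296, had 56, 70 and 7 counts with cadmium and 0 in each untreated library, where a count of 0 allows up to 0.169, 0.175 and 0.181 CPM (3 counts). Such limits cover counting error only. Transmembrane protein 205, Cluster-16698.52863, had 92, 162 and 17 counts with cadmium and 0, 3 and 0 without.

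**Figure D2:**
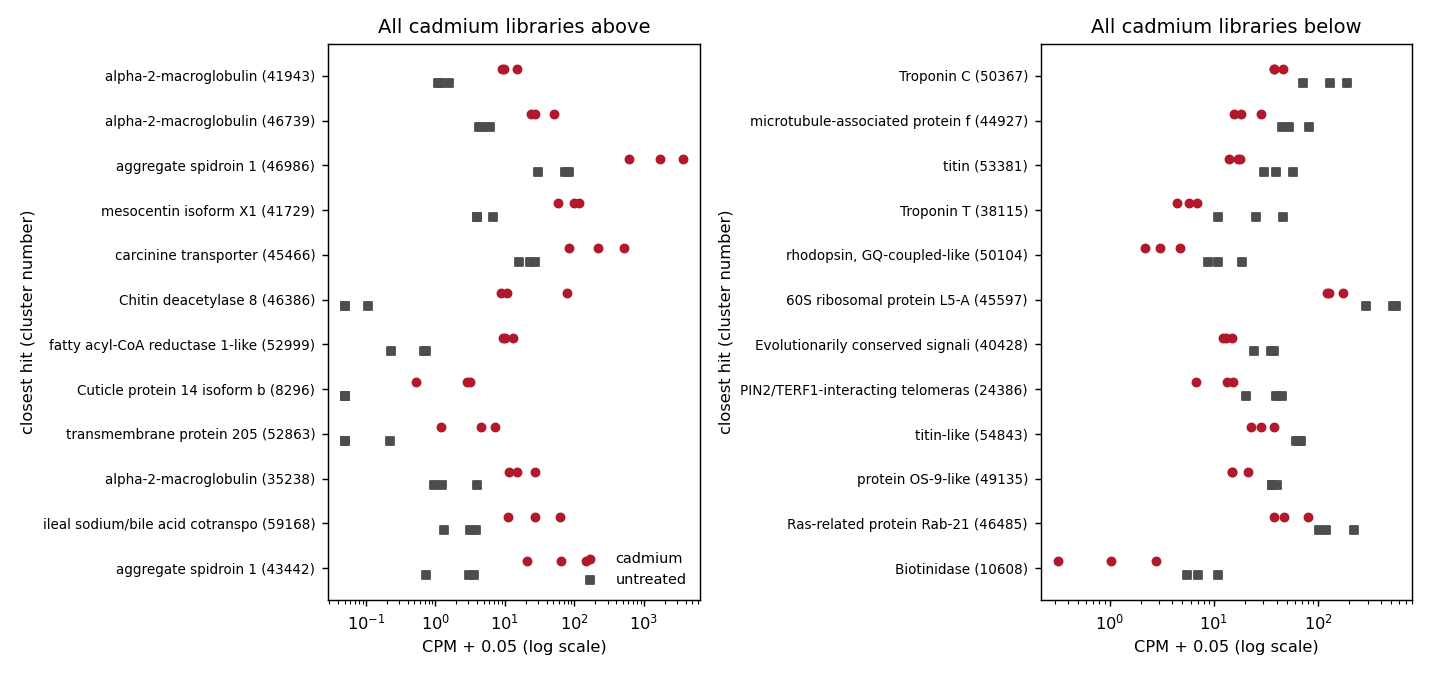
CPM plus 0.05 on a log axis in each of the 6 gland libraries for the 24 clusters named by the smallest unadjusted p, 12 higher and 12 lower with cadmium, with cadmium libraries as red circles and untreated libraries as grey squares. By the rule that chose them the groups do not overlap in any row, and the gaps are wider among the higher clusters than among the lower ones, as with aggregate spidroin 1 at 604 to 3636 against 29.8 to 85.0 CPM and troponin C at 37.9 to 46.5 against 71.5 to 190 CPM.

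Muscle clusters were the main group on the lower side. Troponin, tropomyosin and myosin form the contractile filaments, and titin-like proteins link them. The muscle list of 78 tested clusters had a median log2 difference of -0.79; 13 were lower and 4 higher at an unadjusted p under 0.05, beside 0.55% and 2.31% of all clusters, and 21 were below and 6 above, beside 3.01% and 5.77%. Its share of counts was 0.224, 0.261 and 0.224% with cadmium and 0.621, 0.355 and 0.265% without. The margin between the highest cadmium and lowest untreated library is small, and the groups overlapped once silk clusters were left out of the total. For the 28 contractile clusters alone the median was -1.29, with 8 lower and 0 higher at an unadjusted p under 0.05, and for 26 titin and twitchin family clusters it was -0.64, with 5 lower and 0 higher. These counts rest on single libraries. Without cadmium library 2, 5 muscle clusters were lower. For the contractile list (troponin, tropomyosin and myosin of muscle), 3 were lower without cadmium library 1, 2 without cadmium library 2 and 12 without untreated library 3, and the median was -0.70 without untreated library 1. For the muscle list it was -0.51 without untreated library 2. In the titin and twitchin family, 3 were lower without cadmium library 2 and 3 without untreated library 2. Over all clusters, 219 of 42896 were lower without cadmium library 1 and 115 of 43485 without cadmium library 2. Without untreated library 2 it was 411 of 43716, and without untreated library 3 it was 414 of 43334. The medians of all 3 lists stayed negative whichever of the 6 libraries was left out.

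Troponin C, the calcium sensor of the thin filament, gave the smallest p on this side. Cluster-16698.50367 had 37.9, 38.1 and 46.5 CPM with cadmium and 190, 131 and 71.5 CPM without, a log2 difference of -1.68 ± 0.43 at an edgeR unadjusted p of 0.00293 and an adjusted p of 1. The cadmium values were close to each other and the untreated ones were spread. Troponin T Cluster-16698.38115 had 4.39, 6.91 and 5.77 CPM with cadmium and 46.5, 10.8 and 25.6 CPM without, a log2 difference of -2.28 ± 0.65. A titin match, Cluster-16698.53381, had 17.8, 14.0 and 16.9 CPM with cadmium and 57.9, 39.9 and 30.4 CPM without, and Cluster-16698.54843, titin-like, had 37.5, 22.7 and 28.4 CPM with cadmium and 67.9, 65.7 and 61.6 CPM without.

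Of the 28 contractile clusters, 10 had all cadmium libraries below and 18 overlapped, beside 3.01% below over all clusters. The more abundant muscle clusters overlapped. Myosin heavy chain Cluster-16698.46103 had 116, 108 and 152 CPM with cadmium and 965, 104 and 325 CPM without. Paramyosin Cluster-16698.47600 had 96.4, 126 and 228 CPM with cadmium and 496, 148 and 333 CPM without. Not all members were on the lower side: obscurin-like Cluster-16698.53972 had 45.9, 57.7 and 152 CPM with cadmium and 32.4, 54.8 and 63.3 CPM without. Muscle is no part of the secretory epithelium, and troponin C Cluster-16698.50367 stood at 1515 to 3741 CPM in the ganglia of cadmium-exposed spiders and at 1849 to 3155 CPM in untreated ganglia. How much muscle each gland library contained was not tested.

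**Figure D3:**
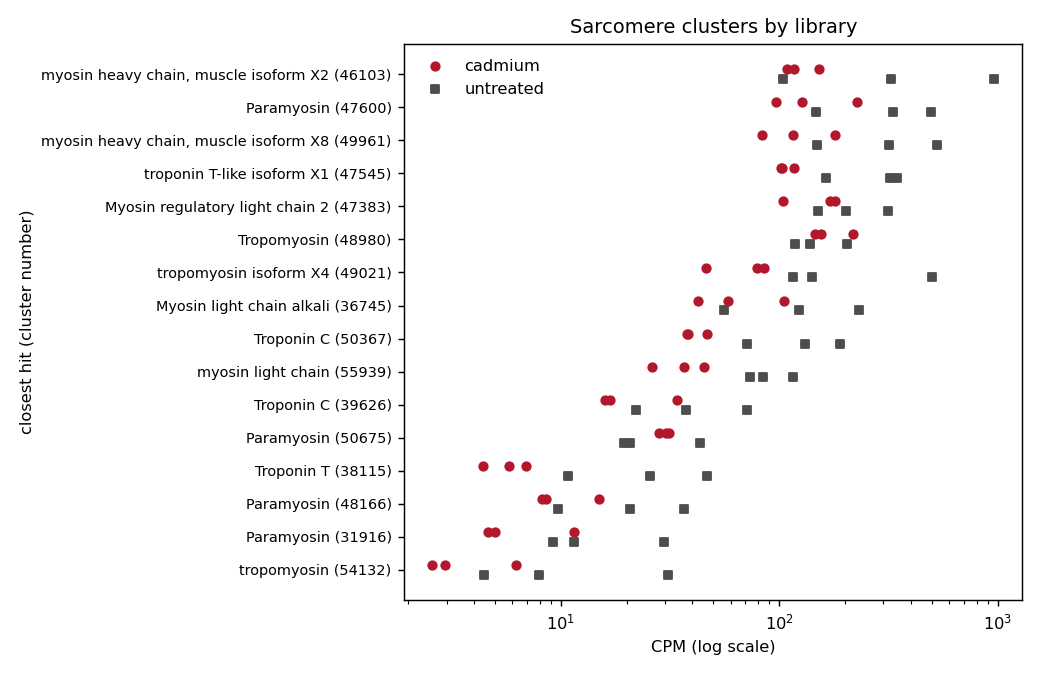
CPM on a log axis of sarcomere clusters in the 6 gland libraries, cadmium as red circles and untreated as grey squares, with the most abundant clusters at the top. The rows are the more abundant of the 28 contractile clusters tested. Over all 28, the cadmium libraries lie below the untreated ones in 10 and overlap them in 18. Myosin heavy chain (116, 108 and 152 against 965, 104 and 325 CPM) and a tropomyosin cluster are among those that overlap.

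Among the other lower clusters named by rule, futsch, a microtubule-associated protein of nerve cells in flies, had 28.2, 18.1 and 15.6 CPM with cadmium and 44.6, 81.4 and 52.5 CPM without, in Cluster-16698.44927. The nerve list as a whole did not differ in this way: its share was 0.106, 0.125 and 0.0861% with cadmium and 0.114, 0.105 and 0.0971% without, and its 50 tested clusters had a median log2 difference of 0.10. Rhodopsin-like Cluster-16698.50104, the small GTPase Rab-21 Cluster-16698.46485, the ECSIT match Cluster-16698.40428 and the ER lectin OS-9-like Cluster-16698.49135 had log2 differences of -1.96 ± 0.56, -1.43 ± 0.47, -1.28 ± 0.37 and -1.13 ± 0.36. Each had all 3 cadmium libraries below all 3 untreated ones, as the rule for naming them asks.

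Clusters of protein synthesis and respiration were shifted slightly to the lower side. Cytosolic ribosomal protein clusters had a median log2 difference of -0.24 over 98 tested, with 17 below and 4 above. Mitochondrial ribosomal protein clusters had -0.28 over 75, with 9 below and 0 above, and ribosome biogenesis factors -0.29 over 84, with 11 below and 2 above. Oxidative phosphorylation clusters had -0.27 over 82, with 13 below and 0 above. Over all clusters, 3.01% lay below and 5.77% above. At an unadjusted edgeR p under 0.05, 2 cytosolic ribosomal protein clusters were lower and 0 higher. Ribosome biogenesis factors had 7 lower and 1 higher. Mitochondrial ribosomal protein and oxidative phosphorylation clusters had 0 in either direction. The shares over all clusters were 0.55% lower and 2.31% higher. The share of oxidative phosphorylation was 0.605, 0.556 and 0.574% with cadmium and 0.636, 0.777 and 0.657% without. The counts below depend on the scaling. Over all clusters, 2.564% lay below with plain library totals and 3.955% with RLE size factors. Of the cytosolic ribosomal clusters, 5 lay below with library totals and 25 with RLE. Measured from the median of all clusters, the cytosolic ribosomal median was -0.316 as reported and -0.333 with RLE. For oxidative phosphorylation the counts below were 22 with library totals and 23 with RLE, and for ribosome biogenesis factors 6 and 14. Genes encoded in the mitochondrion had a median of 0.02 over 24 tested clusters. The share of oxidative phosphorylation overlapped when silk clusters were left out of the total.

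Single members of these lists shifted by different amounts. Cytochrome c oxidase subunit NDUFA4, Cluster-16698.48471, had 354, 377 and 358 CPM with cadmium and 536, 508 and 514 CPM without. ATP synthase subunit beta, Cluster-16698.47856, had 638, 615 and 849 CPM with cadmium and 488, 1073 and 674 CPM without. The first pair of groups is apart and the second is not. A ribosomal protein L5-A cluster, Cluster-16698.45597, had 126, 122 and 173 CPM with cadmium and 555, 291 and 524 CPM without, but the more abundant L5-A Cluster-16698.47089 had 1983, 2103 and 1554 CPM with cadmium and 2033, 2251 and 1388 CPM without. Both clusters carry the same name, and whether they share reads was not tested.

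**Figure D4:**
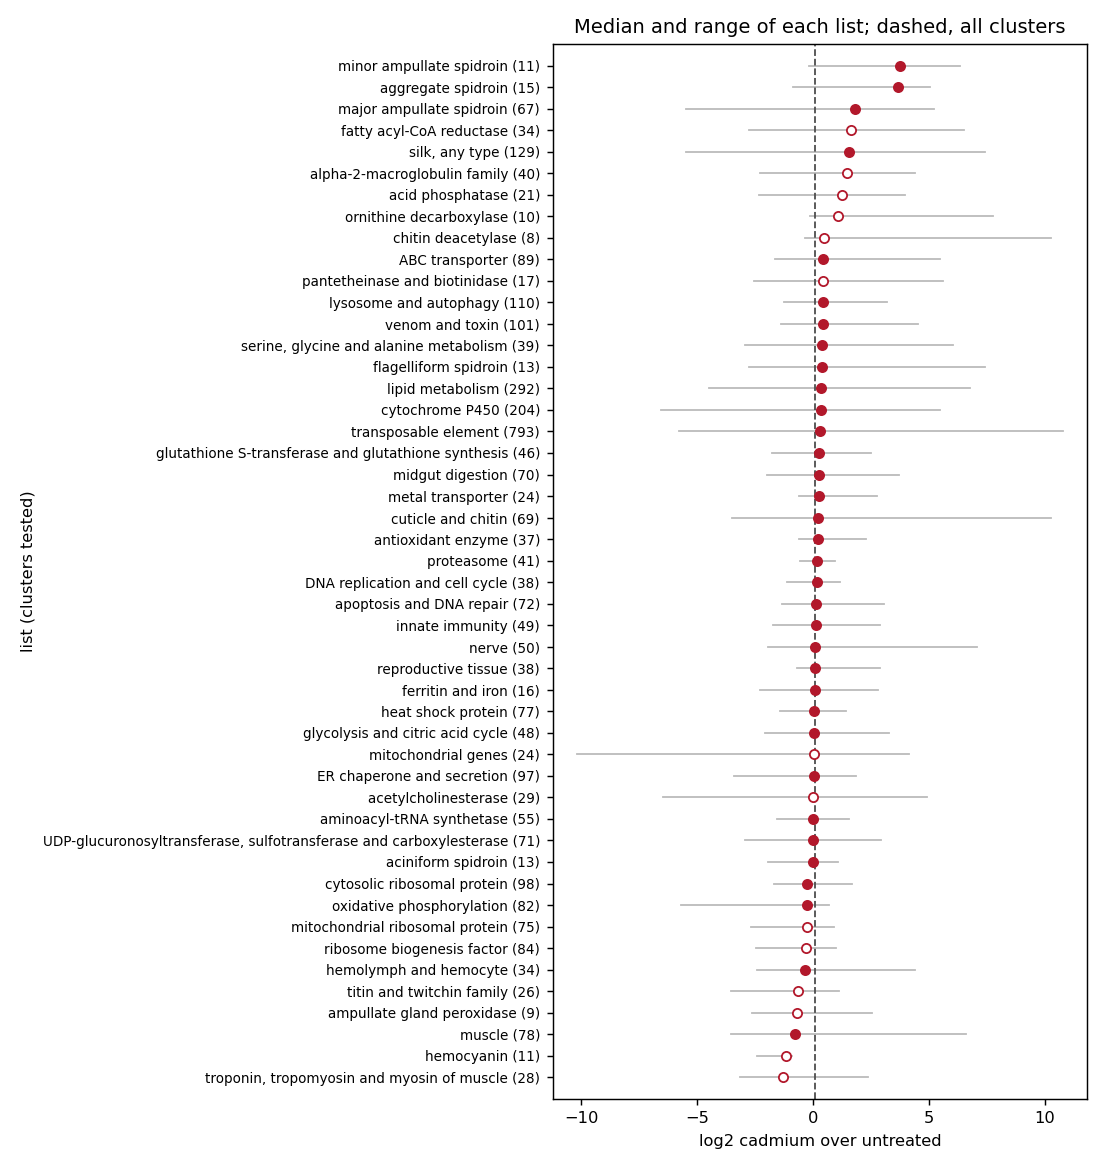
Median log2 difference, cadmium over untreated, for each gene list with at least 8 tested clusters; filled points are lists from the first set and hollow points lists added later, and the dashed line is the median of all clusters tested (0.07). Aggregate and minor ampullate spidroins (3.65 and 3.73) stand furthest to the higher side, and the contractile muscle clusters and hemocyanin (-1.29 and -1.19) furthest to the lower side.

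Metal handling and stress genes gave few differences. Metallothionein had 2 tested clusters: Cluster-16698.33334 had 4.88, 8.47 and 6.32 CPM with cadmium and 1.57, 4.03 and 1.33 CPM without, a log2 difference of 1.5 ± 0.62 at an edgeR unadjusted p of 0.0351 and an adjusted p of 1. The groups are apart but both are at low levels. In ganglia the same cluster had 12.2 to 15.4 CPM with cadmium and 12.5 to 18.6 CPM without. Metal transporters had a median log2 difference of 0.25 over 24 clusters, with 0 at an unadjusted edgeR p under 0.05; the zinc transporter ZIP3-like Cluster-16698.37395, an importer, had 19.9, 40.2 and 22.8 CPM with cadmium and 14.2, 17 and 12.5 CPM without.

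Heat shock proteins, the folding helpers, had a median of 0.03 over 77 clusters, and ER chaperone and secretion clusters 0.02 over 97. Ferritin and iron genes, which store iron, had 0.08 over 16 clusters with overlapping groups throughout. The abundant heat shock 70 kDa protein cognate 4 Cluster-16698.46984 had 2791, 4257 and 4378 CPM with cadmium and 2624, 3081 and 3133 CPM without. Of 37 antioxidant enzyme clusters, 1 was higher at an unadjusted edgeR p under 0.05, and thioredoxin reductase 1, Cluster-16698.40285, which keeps thioredoxin reduced, had 46.6, 67.7 and 93.3 CPM with cadmium and 40.7, 37.3 and 37.2 CPM without. Glutathione S-transferases and glutathione synthesis had a median of 0.27 over 46 clusters, with 4 above and 2 below, shares near the 5.77% and 3.01% of all clusters. With library totals 1 lay above.

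Cytochrome P450 clusters, the oxidases of hormone and foreign-compound metabolism, had a median of 0.32 over 204 clusters, with 24 above and 4 below, beside 5.77% and 3.01% of all clusters. At an unadjusted edgeR p under 0.05, 3 were higher and 4 lower, beside 2.31% and 0.55% of all clusters. A cytochrome P450 18a1 match, the family that inactivates the molting hormone in insects, was far lower: Cluster-16698.35116 had 4.69, 1.11 and 1.58 CPM with cadmium and 72.9, 75.6 and 55.6 CPM without, a log2 difference of -4.78 ± 1.70 at an edgeR unadjusted p of 0.0216. A second P450 18a1 match, Cluster-16698.68568, had 3.31, 3.39 and 3.92 CPM with cadmium and 7.88, 8.83 and 9.36 CPM without. Both were below in all 3 cadmium libraries. ABC transporters, pumps of many substrates, had a median of 0.44 over 89 clusters, with 5 higher and 0 lower at an unadjusted p under 0.05, beside 2.31% and 0.55% of all clusters.

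Several further markers of other tissues were followed. Midgut digestion clusters had a median log2 difference of 0.26 over 70, with shares of 0.159, 0.178 and 0.242% with cadmium and 0.192, 0.181 and 0.118% without. The astacin-like metallopeptidase 1, Cluster-16698.46769, a digestive protease, had 304, 442 and 663 CPM with cadmium and 114, 249 and 188 CPM without. Cuticle and chitin clusters had a median of 0.23 over 69, with 12 above and 3 below, and venom and toxin matches 0.41 over 101, with 11 above and 0 below, beside 5.77% and 3.01% of all clusters. The venom and toxin matches had 7 above with RLE size factors and 14 with library totals, beside 4.856% and 5.572% of all clusters. At an unadjusted edgeR p under 0.05, 0 of them were higher and 0 lower. Cuticle and chitin clusters had 8 higher and 1 lower by that p. The shares over all clusters were 2.31% and 0.55%. Reproductive tissue markers had 0.08 over 38. The shares of these 4 lists overlapped between the groups, and the part of other tissues in the results was not tested.

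Many of the widest differences between single libraries lay within the untreated group. Counting clusters at 1 CPM or more in which 1 untreated library was inside or above the cadmium range while the other two were at least 4-fold below the lowest cadmium library, there were 1305 for untreated library 1, 78 for untreated library 2 and 1530 for untreated library 3. With the roles turned round, 1 cadmium library was inside or above the untreated range, and the other two at least 4-fold below it, in 1 to 6 clusters. Cases with the other two of the group at least 4-fold above the opposite range numbered 2 to 3 for each untreated library and 8 to 24 for each cadmium library. Chitin deacetylase 1, Cluster-16698.47847, had 1526, 3288 and 10730 CPM with cadmium and 19.2, 47.1 and 6258 CPM without. Cytochrome P450 302a1, Cluster-16698.46376, an ecdysteroid synthesis enzyme in insects, had 769, 1479 and 5255 CPM with cadmium and 5.23, 29.4 and 3522 CPM without. In both, untreated library 3 was within the cadmium range.

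Untreated library 1 stood apart with other genes. Tubulin beta-2C, a microtubule subunit, had 202, 79.4 and 759 CPM with cadmium and 296, 9.12 and 0.181 CPM without, in Cluster-16698.47829. Tubulin alpha-1, Cluster-16698.44688, had 93.5, 69.3 and 641 CPM with cadmium and 285, 7.54 and 0.362 CPM without. These examples were chosen after their values were seen. Whether such clusters reflect the glands dissected, the animals or the library preparation was not tested.

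**Figure D5:**
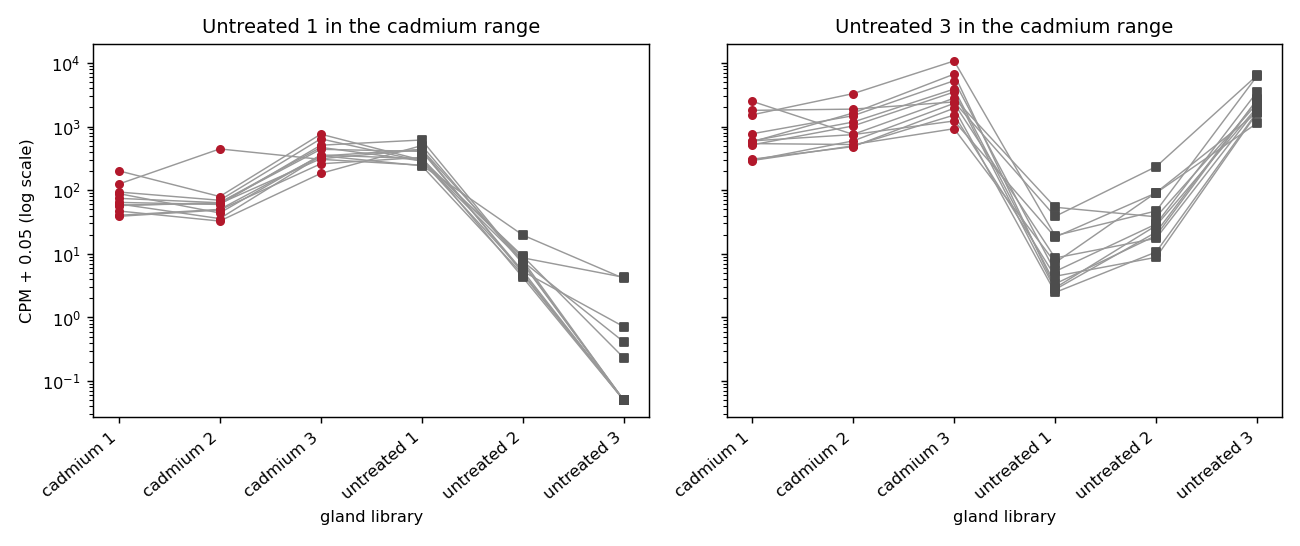
CPM plus 0.05 on a log axis in each gland library (cadmium red circles, untreated grey squares) for the 12 most abundant described clusters in which untreated library 1 (left) or untreated library 3 (right) lay at or above the lowest cadmium library while the other two untreated libraries were at least 4-fold below it; lines join the values of 1 cluster. In the right panel chitin deacetylase 1 has 1526 to 10730 CPM with cadmium and 6258 CPM in untreated library 3, and in the left panel tubulin beta-2C has 79.4 to 759 CPM with cadmium and 296 CPM in untreated library 1.

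The count of clusters at an unadjusted p under 0.05 moved with single libraries. It was 3011 without untreated library 1, 2601 without untreated library 2 and 3685 without untreated library 3, against 1273 with all, and 643 without cadmium library 2. Higher clusters made up 2585, 2190 and 3271 of these without untreated libraries 1, 2 and 3, and 528 without cadmium library 2. List counts from those fits are to be read beside these. In none of these fits did edgeR call a cluster, and the smallest adjusted p, 0.0577, came without untreated library 3.

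The same fit gives lead and combined exposure against the same 3 untreated libraries, so the values are set side by side and not tested against each other. Aggregate spidroin 1 Cluster-16698.46986 had 739 and 3219 CPM in the 2 lead libraries, 7812 and 18667 CPM in the 2 combined libraries, 604 to 3636 CPM with cadmium and 29.8 to 85.0 CPM without metal. Its log2 difference was 4.98 for cadmium, 4.98 for lead and 7.72 for the combination, and edgeR's adjusted p for the combination was 0.0387. Alpha-2-macroglobulin Cluster-16698.41943 had log2 differences of 3.20 for cadmium, 4.39 for lead and 6.53 for the combination, with an adjusted p of 0.0104 for the last. Troponin C Cluster-16698.50367 had -1.68 for cadmium, -4.03 for lead and -6.81 for the combination, with an adjusted p of 0.0132. These 3 clusters passed edgeR's test for the combination and not for either metal alone. They were picked by their values against the same untreated libraries. How many of all clusters passed for the combination is not given here. The 3 calls are therefore not read as particular to these genes. Differences between exposures were not tested. Aggregate spidroins as a whole held 0.624 to 1.29% of counts with cadmium, 0.175 and 0.886% with lead, 1.67 and 8.46% with both and 0.0411 to 0.219% without metal.

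For major ampullate spidroin the shares were 1.08 to 2.42% with cadmium, 14.7 and 10.7% with lead, 13.7 and 8.46% with both and 0.108 to 2.24% without metal. The carcinine transporter Cluster-16698.45466 had log2 differences of 3.63 for cadmium, 2.39 for lead and 3.46 for the combination. The P450 18a1 match Cluster-16698.35116 had -4.78, -5.19 and -4.56 in the same order. A pair of chitinase matches, Cluster-16698.42400 and Cluster-16698.53269, had log2 differences of 1.51 and 1.85 for cadmium, -1.11 and -1.36 for lead and -1.02 and -0.64 for the combination.

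Whether the gland differed from the ganglia in its cadmium difference was tested as an interaction over the 20 distinct libraries. edgeR called 0 of 51904 clusters, a share of 0%, with 1320 positive and 777 negative at an unadjusted p under 0.05 (together 4.04%), and DESeq2 called 115. The carcinine transporter Cluster-16698.45466 had 29.9, 22.2 and 36.1 CPM in ganglia with cadmium and 47.5, 48.9 and 33.7 CPM in untreated ganglia, and the gland difference exceeded that of the ganglia by 4.11 ± 0.74 on the log2 scale, at an edgeR unadjusted p of 3.4e-05 and an adjusted p of 1. In the ganglia the groups overlapped; in the gland they did not.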

How the data were processed

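Per the labels' protocols, gland RNA of Araneus ventricosus was extracted with RNeasy Mini Plus, and libraries were prepared by SMARTER mRNA-Seq chemistry for Illumina NovaSeq. How reads were assembled, aligned and counted is not stated in the labels or file headers. As deposited by the authors, the values are estimated counts per assembled cluster, not normalized and not all whole, and FPKM values; the FPKM unit is read from the deposited columns and their values, and served only for shares per length. The table holds 142219 clusters, 29561 of them described here by their closest protein or nucleotide hit in the deposited annotation, so names are hits, not identified genes.

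Counts were rounded to whole numbers. Of columns equal in every cluster 1 was kept. The 10 distinct gland libraries were fitted together, and cadmium was contrasted with untreated. The fit used edgeR 4.0.16, limma 3.58.1 and R 4.3.3, with filterByExpr, TMM, robust quasi-likelihood and Benjamini-Hochberg over 44505 clusters, at adjusted p under 0.05. Lead and combined libraries entered the filter, the TMM factors and the estimate of spread. They thus also affect which clusters were tested: with the 6 libraries alone, 32150 were. The interaction with ganglia used all 20 distinct libraries. DESeq2 1.42.0 was an alternative; it gave no adjusted p for 9335 clusters. CPM are scaled by TMM. Python 3.11.15, numpy 2.4.6, pandas 2.3.3 and matplotlib 3.10.9 made summaries and figures. The fit was tested on simulated data with 50 changed clusters at each of several sizes. It called 0 of 50 at a log2 change of 2, 11 at 4, 30 at 6 and 40 at 8, with 0 false calls. The absence of calls therefore says little about changes of the smaller sizes.

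Named clusters are the 12 higher and 12 lower with the smallest unadjusted p among described clusters of at least 1 CPM whose groups do not overlap and whose hit is not a bacterium, virus, plant, fungus or vertebrate, the 10 most abundant, and in each list up to 4 by level and up to 2 in each direction by p. The comparison, the members and the lists were chosen with earlier results of these data known. Of the lists, 37 come from the plan and 15 were added after values were seen (among them alpha-2-macroglobulin, acid phosphatase, pantetheinase, ornithine decarboxylase, fatty acyl-CoA reductase, acetylcholinesterase, hemocyanin and the contractile subset). Also set after values were seen were the exclusions from lists, the split of mitochondrial genes, the placing of fibroins 3 and 4 with major ampullate silk, and the rule for silk names from nucleotide hits (score of at least 0.3 per base or 300), which alone named 67 of 142 silk clusters. No set test was run.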

Additional observations from a re-analysis of the deposited data

How the results depend on the processing

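edgeR called 0 clusters under TMM, RLE and TMMwsp scaling, the 1 CPM filter, all deposited columns, length-trend removal, no robust estimation, the 6 libraries alone, silk left out and each library left out; DESeq2 called 97 and the fit with no filter on low counts called 254, of which 61 have over 0.9 of their CPM in 1 library. The cause of these differences was not tested. At an unadjusted p under 0.05 (1273 in the fit as reported), the count was 845 with the 1 CPM filter, 1982 with DESeq2, 4490 with no filter and 794 with the 6 libraries alone; leaving out 1 library each gave 643 to 3685. Higher and lower clusters split 1028 to 245 as reported, 597 to 248 with the 1 CPM filter, 890 to 396 with RLE, 1252 to 730 with DESeq2, 857 to 493 with the length trend removed, 1321 to 581 with all columns, 492 to 302 with the 6 libraries and 2151 to 2339 with no filter. The median of all clusters was 0.07 as reported, -0.03 with RLE, -0.08 with the length trend removed and 0.25 with the replicate block, so log2 differences read against zero shift by that much. Whether replicate numbers pair the libraries is not known. Same-numbered deviations from the group means correlated at -0.0643, 0.229 and 0.0252, and different-numbered ones at -0.357 to 0.235. So few values cannot settle it. The fit with the replicate block called 0 and had 1313 at an unadjusted p under 0.05 (1176 higher, 137 lower), and 805 with the block and the 6 libraries. The interaction had 115 DESeq2 calls.

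Without 1 library the median of the minor ampullate spidroin list ran 1.5 to 5.41, and that of silk, any type (1.53 with all) ran 0.657 to 3.82. The aggregate spidroin share differed by 0.738 percentage points as reported, by 1.05 over described clusters and by 0.365 on summed FPKM; cadmium stayed above in each. With RLE and with library totals, both added after the data were seen, all cadmium libraries lay above in 2161 and 2480 clusters and below in 1760 and 1141. The 76 log2 differences followed kept their direction in every setting in which the cluster was tested. They had been picked by p or by separated groups in these same libraries, so their direction could hardly turn. Depth limits clusters of a few counts.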
